A study of Mus musculus with 419 samples.

Results

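Insulin signalling and glucose uptake were followed through 9 mouse genes, out of 55487 genes in the deposited count table. They encode the insulin receptor (Insr), its substrates (Irs1 and Irs2), a pair of glucose transporters (Slc2a4 and Slc2a2), a pair of hexokinases (Hk1 and Hk2), a regulator of glycolytic flux (Pfkfb3) and the liver-type glycogen synthase (Gys2). The genes were chosen by symbol, and each symbol matched 1 row of the table. The study sequenced poly(A) RNA of CBA/CaJ mice, an inbred strain, over 19 tissues and 419 libraries. It modelled REDs, short for relative energy deficiency in sport, in which athletes take in less energy than they spend. Energy-deficient mice (Deficient) were compared with energy-sufficient mice (Control), in females and in males, at ZT17 and at ZT05, where the zeitgeber time counts hours after lights on. The names of libraries from animals numbered under 73 carry 4 or 4_5 where the labels give ZT05, and 16 or 16_5 where they give ZT17. The times used here are those of the labels. All groups share the strain, and the labels used here name no transgene or mutation, no age and no regimen behind the energy deficit. Each group of treatment, sex, time and tissue held 3 libraries, except that Control males at ZT05 had 2 libraries of tibialis anterior tendon. A comparison within a sex and tissue therefore set 6 Deficient libraries against 6 Control libraries, or 5 in that tendon. Both sexes were sampled in 16 tissues, ovary and uterus came from females and testis from males. Females were all numbered under 73, whereas the males were all numbered 73 and above in 7 tissues (EDL, TA and their tendons, soleus, kidney and adrenal gland, with EDL the extensor digitorum longus and TA the tibialis anterior muscle) and mixed in 5 tissues. In those 7 tissues sex and animal number range cannot be told apart. Library names carry animal numbers, and nothing else in the labels says how the replicates were taken, so p-values measure the spread between these libraries. The same animal numbers recur from tissue to tissue, so counts over tissues repeat animals and are not independent.

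Insulin binds a receptor tyrosine kinase on the cell surface, which phosphorylates the adaptor proteins IRS1 and IRS2 and thereby activates phosphatidylinositol 3-kinase and AKT. In skeletal muscle, heart and adipose tissue this signal moves the transporter GLUT4, the product of Slc2a4, to the plasma membrane, whereas liver and kidney tubule exchange glucose through GLUT2, the product of Slc2a2. Inside the cell a hexokinase traps glucose as its phosphate, PFKFB3 makes the main allosteric activator of phosphofructokinase and so of glycolysis, and glycogen synthase stores glucose as glycogen.

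Gene positions are those of GENCODE release M21 on the GRCm38 build, and all 9 genes are protein coding. Insr lies on the minus strand at chr8:3122061-3279617, Irs1 on the minus strand at chr1:82233101-82291416 and Irs2 on the minus strand at chr8:10984681-11008458. Slc2a4 lies on the minus strand at chr11:69942539-69948188 and Slc2a2 on the plus strand at chr3:28697903-28731359. Hk1 lies on the minus strand at chr10:62268855-62379908, Hk2 on the minus strand at chr6:82725025-82774454, Pfkfb3 on the minus strand at chr2:11471433-11554077 and Gys2 on the minus strand at chr6:142422613-142473109. Exons of Irs1 share 2822 bases with the opposite-strand gene Gm9747. The shared stretch is 162 bases for Irs2 with 9530052E02Rik and 157 bases for Hk1 with Hk1os. The strand setting used for counting is not given in the sources used here, so reads of these 3 genes and of their opposite-strand partners may not be told apart.

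RefSeq promoter windows on GRCm38.p6, which run from 250 bases before to 50 bases after an annotated start, were matched for 6 of the 9 genes: Irs1, Irs2, Slc2a2, Hk1, Hk2 and Pfkfb3. The windows printed here are those that held the E-box CACGTG, the motif bound by the core clock factors. They were picked with the calls between ZT17 and ZT05 known, and a link to those calls was not tested. Capitals mark that E-box and the GC box GGGCGG or its complement CCGCCC, searched on both strands.
Irs1, chr1:82291390-82291689, minus strand: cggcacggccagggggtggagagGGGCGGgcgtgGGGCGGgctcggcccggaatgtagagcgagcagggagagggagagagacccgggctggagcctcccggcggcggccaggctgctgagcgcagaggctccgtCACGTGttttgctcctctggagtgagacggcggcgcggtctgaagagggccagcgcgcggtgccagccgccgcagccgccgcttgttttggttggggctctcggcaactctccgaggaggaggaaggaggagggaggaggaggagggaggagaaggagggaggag
Irs2, chr8:11008880-11009179, minus strand: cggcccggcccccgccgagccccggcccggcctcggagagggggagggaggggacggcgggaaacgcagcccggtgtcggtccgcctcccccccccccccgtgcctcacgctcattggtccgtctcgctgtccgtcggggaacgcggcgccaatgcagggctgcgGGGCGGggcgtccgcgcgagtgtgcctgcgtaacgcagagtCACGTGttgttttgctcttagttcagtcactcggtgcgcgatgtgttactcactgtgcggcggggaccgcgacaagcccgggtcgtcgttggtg
Pfkfb3, chr2:11502041-11502340, minus strand: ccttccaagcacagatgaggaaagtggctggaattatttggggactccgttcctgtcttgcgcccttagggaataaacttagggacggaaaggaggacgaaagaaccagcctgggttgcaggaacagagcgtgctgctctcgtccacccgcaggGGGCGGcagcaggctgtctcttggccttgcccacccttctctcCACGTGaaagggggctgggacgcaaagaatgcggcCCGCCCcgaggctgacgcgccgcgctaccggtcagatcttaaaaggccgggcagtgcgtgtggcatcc
The E-box stood at position -115 from the start in Irs1, -44 in Irs2 and -53 in this window of Pfkfb3. A second window of Pfkfb3 and those of Slc2a2, Hk1 and Hk2 did not hold this E-box. The GC box occurred 3 times each in that Pfkfb3 window and in the Hk2 window, and not in those of Slc2a2 and Hk1. Of 32851 mouse windows of the same length, 7.15% held this E-box and 35.7% held the GC box. The forkhead element TGTTTAC was present in 3.65% of all windows, the cyclic AMP response element TGACGTCA in 1.79% and the glucocorticoid response element in 0.475%, and none of these 3 occurred in the windows of the 6 genes. A match describes the letters and was not tested as a binding site.

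Total counts per library ran from 5777450 to 53598697. Transcripts encoded by the mitochondrial genome or resembling rRNA took over 50% of the counts in 58 libraries, all of them from males numbered under 73, and the counts outside these transcripts ran from 332648 to 48526693. Male brown adipose tissue (BAT) held the lowest values, and in male liver the counts outside reached at most 1059386 in Control and 1501004 in Deficient libraries, so values in these tissues are less precise. Libraries labelled tendon carried summed skeletal muscle fibre markers of 54461 to 247895 CPM (depth-corrected counts, defined with the levels that follow), and in gastrocnemius tendon the tenocyte markers of 21 of 24 libraries did not exceed the highest sum found outside tendon. The own-tissue markers of 24 of 24 spleen, 9 of 12 uterus and 8 of 12 ovary libraries did not exceed the highest sum found elsewhere, so these lists do not set those tissues apart. Each library is bulk tissue, so fewer cells of a type and less RNA per cell cannot be told apart.

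Levels are in CPM, the usual depth-corrected count (a gene's counts divided by the library size and brought to the same fixed total), on library sizes scaled within each tissue, without the mitochondrially encoded and rRNA-like genes. In Control mice the insulin receptor transcript was found in all 19 tissues. Insr averaged 207 ± 48.4 CPM in adrenal gland and 162 ± 68.9 CPM in heart (SD, n = 12 each). It was lowest in testis at 19.1 ± 2.31 CPM (n = 6), whose libraries did not overlap those of the next tissue, spleen, at 53.4 ± 18.7 CPM. Of the 18 pairs of tissues next to each other in this order, 17 overlapped, so the order within them is not firm. Irs1 was highest in ovary at 194 ± 64.1 CPM (n = 6), followed by quadriceps at 165 ± 124 CPM and soleus at 163 ± 84.1 CPM (n = 12 each), and lowest in testis at 1.10 ± 0.15 CPM. These means pool both sexes where both were sampled. In Control females alone Irs1 averaged 249.6 ± 102 CPM in quadriceps, 199 ± 89.5 CPM in soleus and 194 ± 64.1 CPM in ovary (n = 6 each), and in Control males it was highest in soleus at 127 ± 66.5 CPM. Taken by sex, Insr was highest in female heart and male adrenal gland, Irs2 in female pituitary and male soleus and Hk2 in female BAT and male soleus. Gys2 was highest in BAT of females and in liver of males. Control females averaged 178 CPM of Gys2 at ZT17 and 252 CPM at ZT05 in BAT, and 193 and 221 CPM in liver. Irs2 was highest in pituitary at 46.7 ± 11 CPM and lowest in testis at 4.17 ± 0.309 CPM, and all 18 neighbouring pairs overlapped.

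The genes of glucose entry and trapping had their highest levels in a few tissues. Slc2a4 averaged from 582 ± 110.2 CPM in EDL tendon up to 900.5 ± 68.8 CPM in TA over the 5 limb muscles, the 3 tendons and BAT, with heart next at 337 ± 229.7 CPM. The step from heart to adrenal gland, at 62.7 ± 19 CPM, was the 1 place in its order where the libraries of neighbours did not overlap. Slc2a2 averaged 397 ± 158 CPM in liver and 169.9 ± 39.9 CPM in kidney, and the next tissue, heart, had 1.39 ± 2.06 CPM. In gastrocnemius, TA and TA tendon 0 counts of Slc2a2 were found in Control libraries, which allows up to 0.0222, 0.012 and 0.0158 CPM (3 counts over the summed libraries, counting error only).

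Of the hexokinases, Hk1 averaged 1298 ± 147 CPM in testis, 181 ± 106 CPM in heart, the next tissue, and 4.07 ± 1.73 CPM in liver, the lowest. The heart mean pools unlike sexes. Control female hearts averaged 287 CPM at ZT17 and 273 CPM at ZT05, and Control male hearts 72.4 and 89.7 CPM. Testis did not overlap any other tissue. Hk2 averaged 563 ± 183 CPM in soleus, 537 ± 81.5 CPM in EDL, 534 ± 253 CPM in BAT and 0.699 ± 0.629 CPM in liver, the lowest.

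Pfkfb3 was highest in gastrocnemius at 541 ± 469 CPM and quadriceps at 488 ± 418 CPM, while soleus, a slow muscle, had 43.8 ± 32.2 CPM and liver 10.2 ± 5.04 CPM, the lowest. The SDs pool both sexes and both times. In Control females Pfkfb3 differed between the times in gastrocnemius and quadriceps, as given below, and the source of the spread was not tested. Gys2 averaged 275 ± 222 CPM in liver, 169 ± 79 CPM in BAT and 24.3 ± 17.8 CPM in adrenal gland. Per kilobase of exon, on which different genes can be set beside each other, the Control level in TA was 259 CPM per kb for Slc2a4, 81 for Hk2, 54.4 for Pfkfb3, 16.9 for Irs1, 8.04 for Insr and 3.36 for Irs2. In liver it was 104 CPM per kb for Gys2, 68.9 for Slc2a2, 11.5 for Insr, 2.91 for Irs1 and 2.57 for Irs2. With library sizes scaled over all 419 libraries together, the top tissue became liver for Insr, TA for Irs1, soleus for Irs2 and EDL for Hk2.

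**Figure D1:**
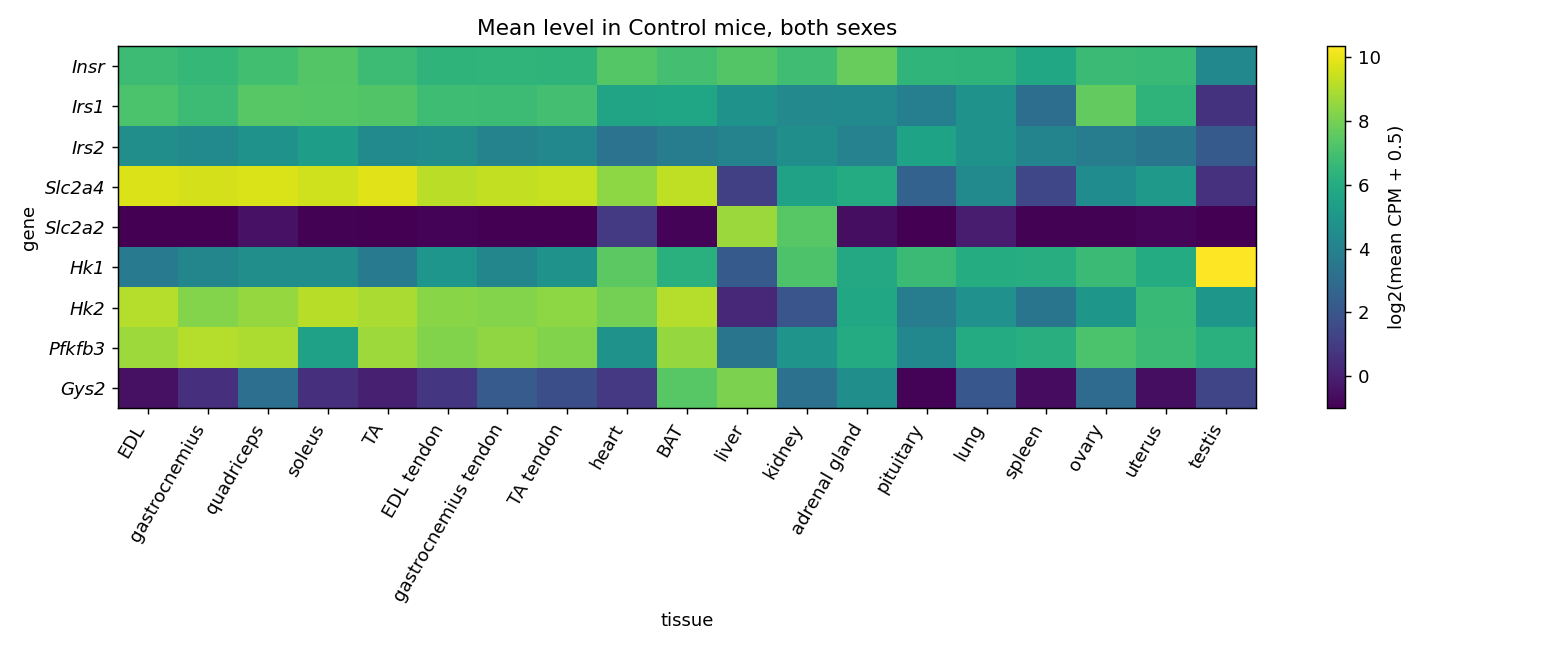
Mean Control level of each gene (rows) in each tissue (columns) as log2 of the mean CPM plus 0.5, over both sexes and times. Slc2a2 stands out in liver and kidney, Slc2a4 in muscle, heart and BAT, and Hk1 in testis at 1298 CPM.

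Over the 19 tissue means on the log2 scale, Control levels of Hk2 and Slc2a4 had a Pearson correlation of 0.869, those of Irs1 and Slc2a4 one of 0.784, and those of Hk2 and Slc2a2 one of -0.718. Of 15482 genes searched, Cox8b, Idh3a and Mrpl42 had the level patterns most like Slc2a4, with correlations of 0.946, 0.945 and 0.943. Aadac came closest to Slc2a2 (0.997), Nfix to Irs1 (0.935), Zbtb11os1 to Hk1 (0.96), Orm1 to Gys2 (0.931), Ap5s1 to Insr (0.865), Mc5r to Pfkfb3 (0.857) and Gpr155 to Irs2 (0.792). These describe 19 points, of which 8 are muscles or tendons with attached muscle.

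The main comparison asked what the energy deficit did to these transcripts in each tissue. Deficient minus Control was averaged over ZT17 and ZT05 and tested in each sex and tissue with edgeR's quasi-likelihood test, with p-values adjusted by Benjamini-Hochberg over all genes of the fit and called below 0.05. Of the 35 fits, Insr, Irs1, Irs2 and Pfkfb3 passed the filter on low counts in 35, Hk1 and Hk2 in 34, Slc2a4 in 33, Gys2 in 26 and Slc2a2 in 6. In females 22 of 142 tested pairs of member and tissue rose, whereas 16 fell, and 6.88% of all genes, paired with their tissues, rose and 7.34% fell. In males 7 of 131 pairs rose and 2 fell, where 2.34% of all pairs rose and 2.43% fell. The share of rises among members was above the background in both sexes, and the share of falls was above it in females. In males the 2 falls were too few to set against it. Insr carried many of the rises, as given below. The genes were chosen with earlier results of these data known, and the pairs repeat the same genes over shared animals. These shares therefore describe the members and do not test them as a set. At ZT17 alone 18 of the 142 female pairs rose and 8 fell, against a background of 3.79% rising and 3.93% falling. At ZT05 alone the female counts were 3 rising and 7 falling, against 2.78% and 3.28%. In males 3 of 131 pairs rose and 0 fell at ZT17, against 1.24% and 1.49%, and 3 rose and 3 fell at ZT05, against 0.995% and 1.06%. The Deficient and Control libraries did not overlap in 5 member pairs of females (3.52%) and 6 of males (4.58%), where 5.18% of all pairs in females and 2.4% in males did not.

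**Figure D2:**
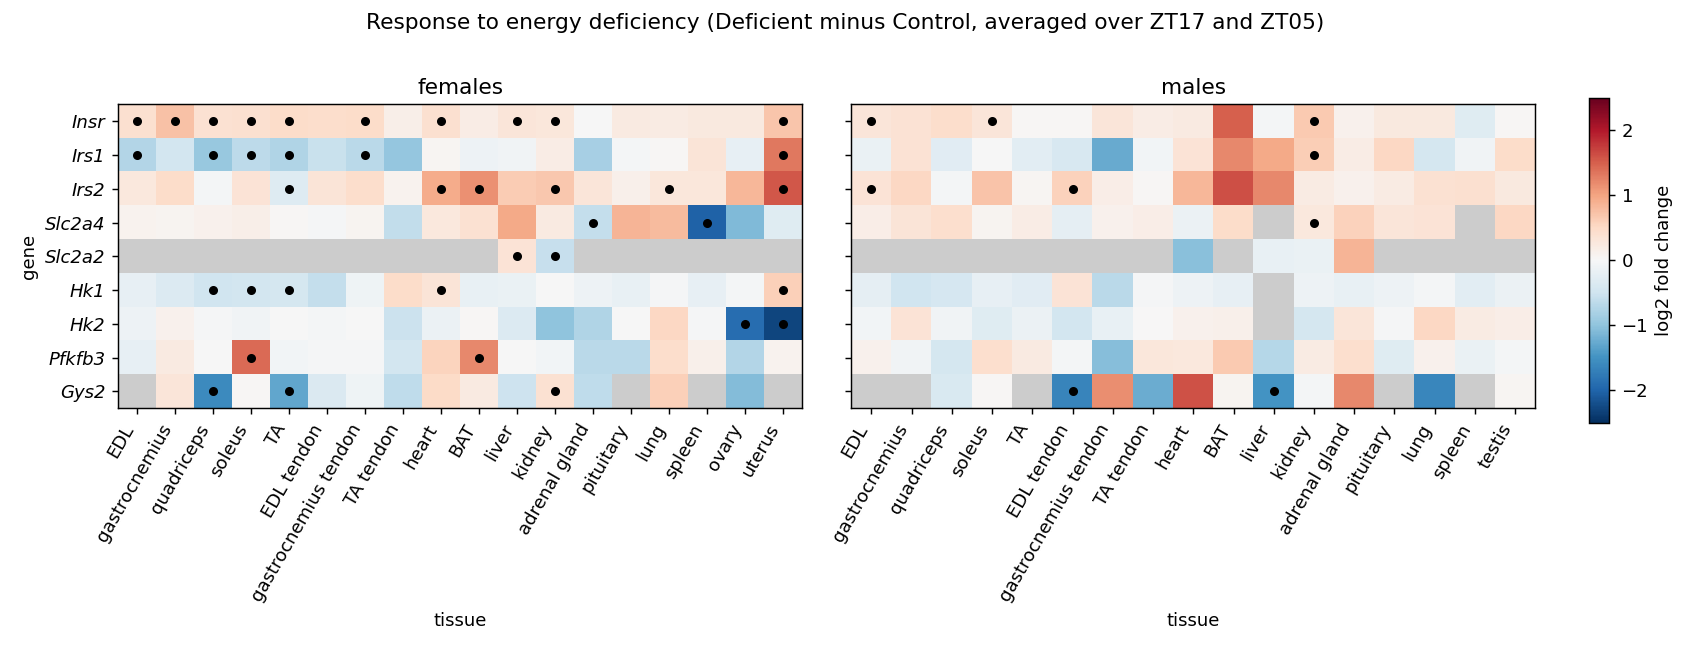
Log2 fold change (Deficient minus Control, colour) of each gene in each tissue of females (left) and males (right). Dots mark calls at an adjusted p under 0.05 and grey marks pairs that were not tested. Insr carries 10 dots in females, and Hk2 in uterus has the lowest value called, -2.30.

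Insr, the receptor gene, was the member called in most tissues. In females it rose in 10 of 18 tissues, and its fold change was positive in 17 of 18, over tissues that shared animals. It rose in all 5 limb muscles of females, where 10.7% of all gene and muscle pairs rose. In TA the Deficient females had 129 to 185 CPM (median 151) and the Control females 97.7 to 146 CPM (median 109), so that Insr was higher by 0.46 ± 0.08 on the log2 scale, given with its SE here and below (adjusted p = 0.00128). In EDL the Deficient females had 149.9 to 201 CPM (median 161) and the Control females 117 to 151 CPM (median 124) (0.40 ± 0.07, adjusted p = 0.00142). The groups overlapped in both muscles, with the Deficient median above the Control one.

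**Figure D3:**
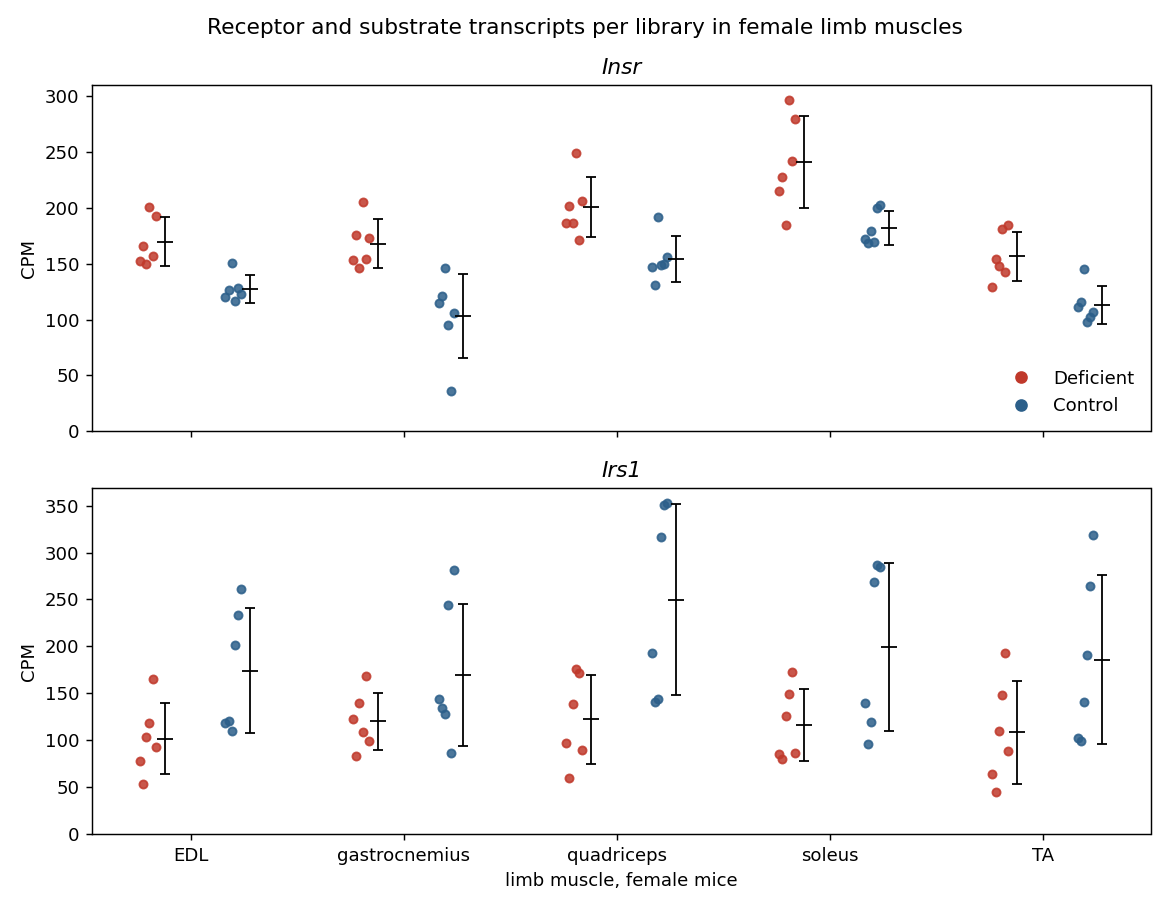
CPM of Insr and Irs1 in each library of 5 limb muscles of females, Deficient left of Control, with mean and SD as bars. Insr is shifted upward in Deficient mice, and Irs1 is lower in 4 of the 5 muscles by the test, at 60.4 to 176 CPM in Deficient quadriceps and 140.4 to 353 CPM in Control quadriceps.

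Soleus had 185 to 297 CPM in Deficient and 168 to 203 CPM in Control females (0.40 ± 0.08, adjusted p = 0.00726). Quadriceps had 172 to 249.6 CPM in Deficient and 131 to 192 CPM in Control females (0.38 ± 0.11, adjusted p = 0.024). Gastrocnemius had 146 to 206 CPM in Deficient and 35.8 to 147 CPM in Control females (0.74 ± 0.21, adjusted p = 0.0416). The lowest gastrocnemius value belonged to the second Control library of ZT17, and without it the change was 0.57 with an adjusted p of 0.0061. The call was lost when any 1 of 8 of the 12 gastrocnemius libraries or 6 of the 12 quadriceps libraries was left out, at adjusted p up to 0.105 and 0.0608, and it held in each omission in EDL, soleus and TA. Gastrocnemius tendon, with attached muscle, gave groups without overlap, at 131 to 168 CPM in Deficient and 82.2 to 111 CPM in Control females (0.46 ± 0.10, adjusted p = 0.00832).

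Outside limb muscle, Insr rose in uterus, heart, liver and kidney of females. Deficient uteri had 116 to 188 CPM (median 167) and Control uteri 74.5 to 118 CPM (median 106) (0.69 ± 0.11, adjusted p = 0.000695). Uterus was also the tissue with the broadest response, in which 21.1% of all genes rose and 24% fell. Heart had 242 to 339 CPM in Deficient and 201 to 262 CPM in Control females (0.40 ± 0.08, adjusted p = 0.00592). Liver changed by 0.31 ± 0.09 (adjusted p = 0.0346) and kidney by 0.28 ± 0.08 (adjusted p = 0.0361), and leaving out any 1 of 8 of the 12 libraries of either organ lost its call, at adjusted p up to 0.0938 in liver and 0.0993 in kidney. When the males were fitted with the females, the Insr calls in quadriceps, gastrocnemius, gastrocnemius tendon, heart and liver were lost, at adjusted p of 0.0528 to 0.528.

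In males Insr rose in kidney, EDL and soleus. Deficient male kidneys had 121 to 167 CPM (median 140.1) and Control male kidneys 80.7 to 99.9 CPM (median 91.6) (0.65 ± 0.09, adjusted p = 0.00023), and the groups did not overlap. Male EDL had 98.7 to 123 CPM in Deficient and 77.6 to 95.4 CPM in Control mice, again without overlap (0.30 ± 0.07, adjusted p = 0.0164). Male soleus changed by 0.30 ± 0.09 (adjusted p = 0.0455), a call lost in 10 of 12 omissions at adjusted p up to 0.111, and also with the mitochondrially encoded and rRNA-like genes kept (adjusted p = 0.0502). The largest Insr estimate of either sex, 1.49 ± 0.38 in male BAT, was not called (adjusted p = 0.0926), at 56.5 to 248 CPM in Deficient and 28.2 to 56.8 CPM in Control males. In the fit of both sexes the kidney response of females minus that of males was -0.37 ± 0.12 (adjusted p = 0.0442). Of 130 member pairs tested for such a difference between the sexes, 0 were higher and 3 lower, where 0.534% of all pairs were higher and 0.558% lower, and the other two were Slc2a4 and Gys2 in adrenal gland. Both tissues are among those in which the males carry the higher animal numbers, so these differences cannot be told apart from the animal number range. Under DESeq2 size factors the Insr difference had an adjusted p of 0.071, and with the set-aside genes kept 0.0554. It was lost in 16 of 24 omissions. Proximal tubule markers fell in kidneys of both sexes, 4 of 6 in females and 5 of 6 in males, with sums in males of 17403 to 35759.7 CPM in Deficient and 54539 to 78487 CPM in Control mice, and their part in the kidney values was not tested.

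The receptor substrates went in different directions between tissues. Irs1, the main substrate in skeletal muscle, fell in EDL, quadriceps, soleus, TA and gastrocnemius tendon of females and rose in uterus. Deficient quadriceps had 60.4 to 176 CPM (median 118) and Control quadriceps 140.4 to 353 CPM (median 255) (-0.95 ± 0.19, adjusted p = 0.00553). Deficient TA had 45.3 to 193 CPM (median 99.7) and Control TA 99.7 to 319 CPM (median 166) (-0.74 ± 0.22, adjusted p = 0.0179). The groups overlapped in both, and the Control values also differed by time, as given below. Tenocyte markers fell in the same tissues, 3 of 6 in EDL, 2 in quadriceps and 5 each in soleus, TA and gastrocnemius tendon, with none at 0. Their sums in quadriceps were 438 to 938 CPM in Deficient and 817 to 1486 CPM in Control females. The sums in gastrocnemius tendon were 276 to 975 CPM in Deficient and 1031 to 1966 CPM in Control females. In gastrocnemius 4 of 6 fell, and the part of these cells in the Insr and Irs1 values of these tissues was not tested.

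Irs1 changed by -0.74 ± 0.15 in EDL (adjusted p = 0.00319), by -0.66 ± 0.17 in soleus (adjusted p = 0.0199) and by -0.67 ± 0.17 in gastrocnemius tendon (adjusted p = 0.0198). Gastrocnemius itself gave -0.47 ± 0.25 and was not called (adjusted p = 0.214). Leaving out the first Control ZT05 library of soleus moved the adjusted p to 0.0507, and leaving out the third Control ZT17 library of gastrocnemius tendon moved it to 0.051. The estimates of the 5 male limb muscles lay between -0.29 and 0.37, and none was called. Male quadriceps and gastrocnemius mix the animal number ranges, at 3 of 12 libraries each from animals numbered 73 and above, and their root dispersions were 0.45 and 0.513, against 0.121 in EDL, 0.141 in soleus and 0.14 in TA. With a term for the number range, Irs1 changed by 0.07 ± 0.21 (adjusted p = 0.913) in male quadriceps and by -0.50 ± 0.43 (adjusted p = 0.704) in male gastrocnemius, each with the sign opposite to that without the term. In females the calls in quadriceps and gastrocnemius tendon were lost when the males shared the fit, at adjusted p of 0.377 to 0.415.

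In uterus Irs1 rose. The Deficient uteri had 138, 191, 192, 207, 252 and 262 CPM, and the Control uteri 55.4, 57, 65.5, 93.1, 106 and 117 CPM (1.32 ± 0.21, adjusted p = 0.000633). No library of one group reached the range of the other. Male kidney showed the same direction at a lower level, with 12.8 to 19.1 CPM in Deficient and 7.73 to 12.6 CPM in Control mice and no overlap (0.61 ± 0.13, adjusted p = 0.00278). Both calls held with any single library left out.

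Irs2, the other substrate, which carries much of the insulin signal in liver, rose in uterus, BAT, heart, kidney and lung of females and fell in TA. Its estimate was positive in 16 of 18 female and 16 of 17 male tissues. Deficient uteri had 17.2 to 45.9 CPM (median 31.3) and Control uteri 2.05 to 18.2 CPM (median 9.42) (1.56 ± 0.44, adjusted p = 0.0137). Deficient BAT had 20.6 to 63.5 CPM (median 42.5) and Control BAT 7.02 to 37.6 CPM (median 19.4) (1.13 ± 0.32, adjusted p = 0.0443). Heart had 13.8 to 39.1 CPM in Deficient and 6.78 to 18.5 CPM in Control females (0.93 ± 0.22, adjusted p = 0.0132). The Deficient values were higher in the median and overlapped the Control values in all 3 tissues.

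Irs2 changed by 0.66 ± 0.19 in kidney (adjusted p = 0.0354) and by 0.29 ± 0.07 in lung (adjusted p = 0.0362). TA went the other way, at 14 to 19.5 CPM in Deficient and 18.8 to 25.3 CPM in Control females (-0.32 ± 0.09, adjusted p = 0.0138). In males Irs2 rose in EDL (0.35 ± 0.10, adjusted p = 0.0413) and EDL tendon (0.57 ± 0.14, adjusted p = 0.0356). The calls in heart, uterus and TA held in each omission, whereas those in BAT, kidney, lung, male EDL and male EDL tendon were lost in 9, 7, 10, 8 and 9 of 12 omissions, at adjusted p up to 0.108, 0.107, 0.0862, 0.0919 and 0.103. The same 5 calls were lost with both sexes in 1 fit, at adjusted p of 0.057 to 0.335. Those in BAT and male EDL were also lost with limma voom, and that in lung with no filter on low counts. In liver, where insulin acts largely through IRS2, no averaged response of Irs2 was called, at 0.63 ± 0.25 for females (adjusted p = 0.118) and 1.20 ± 0.47 for males (adjusted p = 0.164). At ZT17 alone the female liver response was 1.27 ± 0.36 and was called (adjusted p = 0.0366).

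Slc2a4, which encodes the insulin-responsive transporter, was not called in any limb muscle. Its estimates ran from 0.04 to 0.14 in the 5 female and from 0.08 to 0.42 in the 5 male limb muscles. In TA, the muscle with the highest Control level, Deficient females had 853 to 1017 CPM and Control females 802 to 1052 CPM (0.04 ± 0.06, adjusted p = 0.672). A p above the threshold does not show that the levels were alike.

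The Slc2a4 calls lay in tissues with low levels. Deficient female adrenal glands had 34.6 to 59.8 CPM (median 47.2) and Control ones 52.8 to 90.3 CPM (median 71.1) (-0.60 ± 0.11, adjusted p = 0.0187), and the call was lost in 5 of 12 omissions at adjusted p up to 0.0745. Deficient male adrenal glands had 50.3 to 103 CPM (median 87.2) and Control ones 39.8 to 97.5 CPM (median 47.3), and the response of females minus that of males was -1.19 ± 0.27 (adjusted p = 0.0284). Summed adipocyte markers of the adrenal libraries were 2703 to 5092 CPM in Deficient and 3368 to 10925 CPM in Control females, with 0 of 8 called. They were 2176 to 3948 CPM in Deficient and 439 to 1996 CPM in Control males, with 5 of 8 called up. None of the 8 markers was at 0, and their part in the adrenal result was not tested. The sex difference was lost in 11 of 24 omissions, and the female call was lost with both sexes in 1 fit (adjusted p = 0.0701).

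In spleen Deficient females had 0.589 to 1.65 CPM (median 0.808) and Control females 0.486 to 7.62 CPM (median 3.34) (-2.02 ± 0.57, adjusted p = 0.0419). The call was lost with both sexes in 1 fit (adjusted p = 0.383) and with limma voom (adjusted p = 0.126). The Control values were widely scattered, and 8 of 12 omissions lost the call at adjusted p up to 0.134. Erythroid markers fell in these spleens, 4 of 4 tested, with sums of 173 to 738 CPM in Deficient and 1517 to 16103 CPM in Control females, and their part was not tested. Male kidney gave groups without overlap, at 41.6 to 46.1 CPM in Deficient and 31.8 to 40.7 CPM in Control mice (0.26 ± 0.08, adjusted p = 0.0167). With no filter on low counts its adjusted p was 0.0563. There 3 of 8 adipocyte markers rose, with sums of 244 to 522 CPM in Deficient and 204 to 289 CPM in Control mice, and their part was not tested.

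Slc2a2, the transporter gene of liver and kidney, fell in kidney and rose in liver of females. Deficient kidneys had 79.95 to 186 CPM (median 136) and Control kidneys 160.2 to 226 CPM (median 205) (-0.57 ± 0.13, adjusted p = 0.0165). The sums of the 6 proximal tubule markers, 4 of which fell, were 7565 to 12990.5 CPM in Deficient and 17670.2 to 22166 CPM in Control females, and their part was not tested. Deficient livers had 539 to 827 CPM (median 603) and Control livers 352 to 734 CPM (median 509) (0.34 ± 0.10, adjusted p = 0.0356), a call lost in 9 of 12 omissions at adjusted p up to 0.0956. None of the hepatocyte markers was called in female liver. With both sexes in 1 fit the liver call was lost (adjusted p = 0.274).

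Hk1, the hexokinase gene of most tissues, had negative estimates in 15 of 18 female and 15 of 16 male tissues. It fell in quadriceps, soleus and TA of females and rose in heart and uterus. TA had 8.51 to 14.1 CPM (median 10.1) in Deficient and 13.1 to 15.2 CPM (median 14.7) in Control females (-0.44 ± 0.10, adjusted p = 0.00408). Soleus had 10.8 to 20.6 CPM (median 15.7) in Deficient and 19.2 to 24.6 CPM (median 21.9) in Control females (-0.47 ± 0.11, adjusted p = 0.014). Quadriceps changed by -0.50 ± 0.14 (adjusted p = 0.0274), a call lost in 5 of 12 omissions at adjusted p up to 0.0743. In each of these 3 muscles 4 of 4 tested erythroid markers fell, with sums in TA of 15.1 to 93 CPM in Deficient and 73.3 to 136 CPM in Control females. Tenocyte markers fell in TA and soleus, 5 of 6 in each, with sums in TA of 41.1 to 79.8 CPM in Deficient and 138 to 382 CPM in Control females. The part of these cells in the Hk1 values was not tested.

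Heart had 300.1 to 429 CPM of Hk1 in Deficient and 249 to 316 CPM in Control females (0.32 ± 0.07, adjusted p = 0.012). Uterus had 66.6 to 109 CPM in Deficient and 32.4 to 91.5 CPM in Control mice (0.60 ± 0.19, adjusted p = 0.0233), and leaving out the third Deficient ZT05 library or the first Deficient ZT17 library lost the call, at adjusted p up to 0.0565. Both tissues overlapped between the groups, and Hk1 was not called in any male tissue. Both sexes in 1 fit gave no call for Hk1 in female heart or quadriceps, at adjusted p of 0.101 to 0.302.

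Hk2, the inducible hexokinase gene of muscle and fat, fell in uterus and ovary, and its fold change in uterus was the lowest called for any member. The Deficient uteri had 13.7, 15, 15.1, 19.8, 26.4 and 29.5 CPM and the Control uteri 54.6, 62.8, 70.8, 113, 135 and 165 CPM (-2.30 ± 0.30, adjusted p = 0.000283). The Deficient ovaries had 3.39, 4.82, 5.62, 11.1, 13.2 and 18.6 CPM and the Control ovaries 19.2, 19.98, 21.6, 31.8, 39.1 and 57 CPM (-1.91 ± 0.26, adjusted p = 0.00764). In both organs each Deficient library lay below each Control library, and the calls held in each omission. Hk2 was not called in the averaged response of another tissue in either sex.

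Smooth muscle markers fell in both organs, 3 of 5 in uterus and 4 of 5 in ovary. Their sums were 5435 to 8054 CPM in Deficient and 6370.5 to 14511 CPM in Control uteri. In ovary the sums were 649.9 to 2079.7 CPM in Deficient and 1163 to 3279.8 CPM in Control mice. Summed tenocyte markers of ovary were 43.7 to 221 CPM in Deficient and 219 to 612 CPM in Control mice. Summed adipocyte markers there were 183 to 6124 CPM in Deficient and 968 to 2975 CPM in Control mice. The summed ovarian somatic cell markers ran from 6.58 to 2067 CPM over the 12 ovary libraries. Endothelial markers rose in uterus, 5 of 5, with sums of 289 to 504 CPM in Deficient and 192 to 301 CPM in Control mice. The part of these cells in the uterine and ovarian values of Insr, Irs1, Irs2, Hk1 and Hk2 was not tested.

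**Figure D4:**
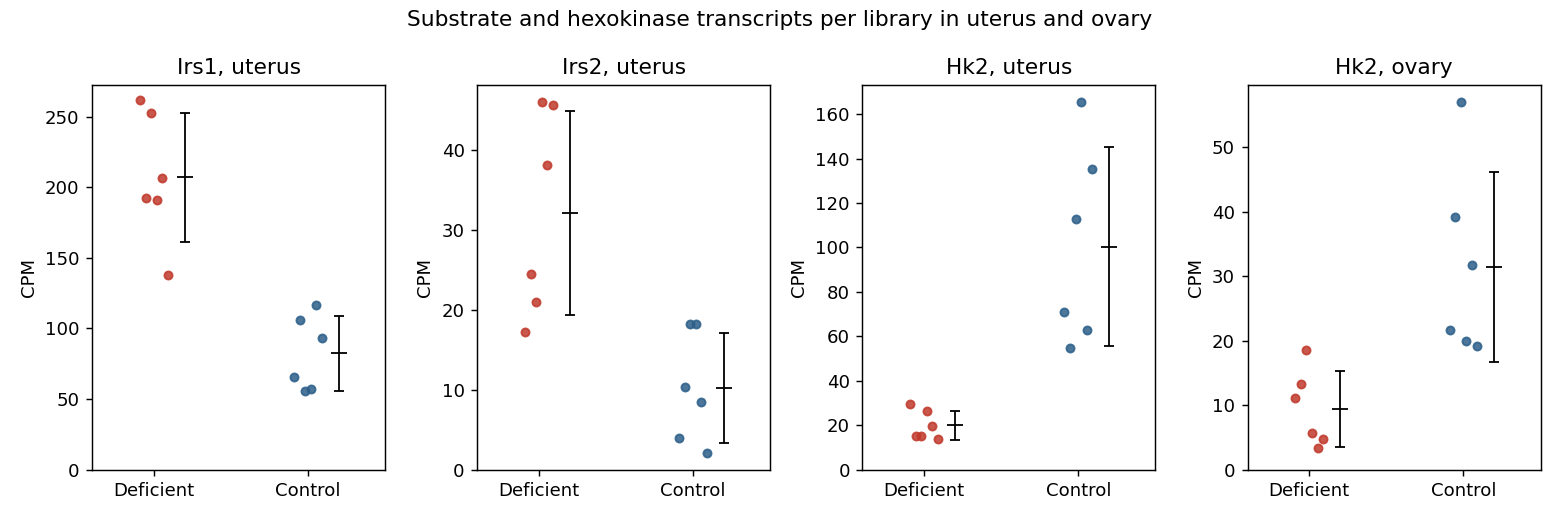
CPM of Irs1, Irs2 and Hk2 in uterus and of Hk2 in ovary in each library, Deficient left of Control, with mean and SD as bars. Deficient and Control points do not overlap for Irs1 in uterus or for Hk2 in either organ.

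Pfkfb3, the regulator of glycolytic flux, rose in BAT and soleus of females. Deficient BAT had 434, 499, 1074, 1143, 1312 and 1338 CPM and Control BAT 165, 169.7, 204, 792, 895 and 1024 CPM (1.20 ± 0.20, adjusted p = 0.00526). The 3 lowest Control values there were those of ZT17. In soleus Deficient females had 28.2 to 457 CPM (median 69.3) and Control females 15.5 to 111 CPM (median 28.7) (1.41 ± 0.41, adjusted p = 0.0377). The soleus call was lost in 8 of 12 omissions at adjusted p up to 0.0935, and the BAT call held in each. The soleus call was also lost with limma voom (adjusted p = 0.0642). Summed adipocyte markers did not overlap in BAT, at 21748 to 23585 CPM in Deficient and 18008 to 21181 CPM in Control females, with 1 of 8 called up. Summed tenocyte markers of soleus did not overlap either, at 439 to 657 CPM in Deficient and 1077 to 1592 CPM in Control females, with 5 of 6 called down. The part of these cells in the Pfkfb3 values was not tested. No male tissue was called in the averaged response.

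Gys2, the glycogen synthase gene of liver, fell in male liver. Deficient male livers had 54.6, 66.7, 71.4, 85.3, 89.5 and 128 CPM and Control male livers 57.4, 84, 115, 421, 599 and 779 CPM (-1.50 ± 0.22, adjusted p = 0.000266). The 3 highest Control values were those of ZT05, and the response at ZT05 alone was -2.56 ± 0.32 (adjusted p = 0.000113). Female liver gave -0.51 ± 0.22 in the average (adjusted p = 0.139) and -1.04 ± 0.31 at ZT17 alone (adjusted p = 0.0438). Mitochondrially encoded and rRNA-like transcripts took 79.2% to 94.4% of the counts in Deficient and 85.4% to 95.3% in Control male livers, and the part of depth was not tested.

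The other averaged Gys2 responses that were called lay in tissues where its level was low. Quadriceps had 1.47 to 5.70 CPM in Deficient and 5.75 to 27.8 CPM in Control females, without overlap (-1.59 ± 0.39, adjusted p = 0.0141). TA had 0.123 to 0.473 CPM in Deficient and 0.437 to 1.12 CPM in Control females (-1.29 ± 0.35, adjusted p = 0.0117). The Deficient TA libraries summed to 16 counts at ZT17 and 17 at ZT05, and the Control ones to 38 and 70. Gys2 thus passed the filter on low counts there through its Control libraries, so this fall is not independent of the filter. Of the 8 adipocyte markers, 6 fell and 1 rose in TA, with sums of 524 to 748 CPM in Deficient and 524 to 588 CPM in Control females, and 1 fell in quadriceps, with sums of 1004 to 1495 CPM in Deficient and 939 to 2642 CPM in Control females. Their part in the Gys2 values was not tested. Male EDL tendon gave 0.126 to 0.924 CPM in Deficient and 0.938 to 2.11 CPM in Control mice (-1.66 ± 0.41, adjusted p = 0.0396). Its Deficient libraries summed to 25 counts at ZT17 and 21 at ZT05, and its Control ones to 38 and 63, so the same limit holds. Female kidney rose by 0.37 ± 0.11 (adjusted p = 0.0495). The calls in male EDL tendon and female kidney were lost in 9 and 9 of 12 omissions, at adjusted p up to 0.107 and 0.123. With both sexes in 1 fit the calls in female quadriceps, female kidney and male EDL tendon were lost, at adjusted p of 0.054 to 0.323. The kidney call was also lost with DESeq2 size factors and with no filter. In female kidney 3 of 5 tested hepatocyte markers rose, with sums of 803 to 1163 CPM in Deficient and 479 to 633 CPM in Control mice, and their part was not tested.

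In adrenal gland the Gys2 response of females minus that of males was -1.84 ± 0.47 (adjusted p = 0.0493), at 11.3 to 40.7 CPM (median 22.3) in Deficient and 24.4 to 56.6 CPM (median 29.8) in Control females. Male adrenal glands had 14.3 to 40.6 CPM (median 25.2) when Deficient and 3.43 to 28.6 CPM (median 9.13) when Control. Beside the adipocyte sums given above, the summed hepatocyte markers of male adrenal glands did not overlap, at 216 to 949 CPM in Deficient and 30.4 to 165 CPM in Control mice, with 1 of 6 called up. In females they were 469 to 769 CPM in Deficient and 235 to 637 CPM in Control mice, with 0 of 5 tested markers called. Their part was not tested. The sex difference of Gys2 had an adjusted p of 0.0539 with DESeq2 size factors and of 0.0537 with the set-aside genes kept, and it was lost in 17 of 24 omissions.

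The second comparison was between ZT17 and ZT05. In Control females 9 of 142 member pairs were higher and 8 lower at ZT17, where 2.23% of all pairs were higher and 2.48% lower. In Control males 4 of 131 were higher and 6 lower, where 0.845% were higher and 0.611% lower. In Deficient females 1 of 142 was higher and 3 lower, where 1.31% were higher and 1.18% lower. In Deficient males 0 of 131 were higher and 1 lower, where 0.0982% were higher and 0.169% lower. At an unadjusted p under 0.05 that comparison in Deficient males held 14 of 131 pairs. The members' shares exceeded the background in Control mice of both sexes, and the calls in Deficient mice were too few to set against it. Most of the lower Control calls were of Pfkfb3 and most of the higher ones in females of Irs1, in tissues that shared animals. The shares are thus not a trait of all members.

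Pfkfb3 was lower at ZT17 in 5 female and 5 male Control tissues. Control female quadriceps had 134, 163 and 211 CPM at ZT17 and 876, 1201 and 1300.0 CPM at ZT05 (-2.73 ± 0.37, adjusted p = 0.0014). Control female gastrocnemius had 129.8, 185 and 204 CPM at ZT17 and 889, 1099 and 1157 CPM at ZT05 (-2.60 ± 0.41, adjusted p = 0.0082). Control female BAT had 165, 169.7 and 204 CPM at ZT17 and 792, 895 and 1024 CPM at ZT05 (-2.34 ± 0.29, adjusted p = 0.000365). In each of the 3 tissues the times did not overlap.

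Female TA (-1.64 ± 0.28, adjusted p = 0.00379) and EDL (-0.83 ± 0.23, adjusted p = 0.0451) went the same way. In Control males Pfkfb3 was lower at ZT17 in TA (-2.64 ± 0.45, adjusted p = 0.0105), EDL (-2.03 ± 0.26, adjusted p = 0.00155), EDL tendon (-1.98 ± 0.31, adjusted p = 0.0404), soleus (-1.61 ± 0.29, adjusted p = 0.0094) and lung (-1.31 ± 0.29, adjusted p = 0.0299). The calls of female EDL, male TA, male EDL tendon and male lung were lost in 6, 3, 6 and 3 of 12 omissions, at adjusted p up to 0.17, 0.0675, 0.178 and 0.139. With both sexes in 1 fit the calls in female quadriceps, gastrocnemius and EDL and in male EDL tendon and soleus were lost, at adjusted p of 0.0561 to 0.251. Over the 5 limb muscles the Control estimate was negative in 5 of 5 for each sex, and in Deficient mice no limb muscle was called.

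The difference between the treatments was tested by subtracting the ZT05 response from the ZT17 one. Member pairs called in this way were 0 higher and 1 lower of 142 in females, where 0.35% of all pairs were higher and 0.347% lower, and 4 higher and 2 lower of 131 in males, where 0.226% were higher and 0.49% lower. Pfkfb3 made up 3 of the 4 higher ones. Deficient male EDL had 368, 526 and 733 CPM at ZT17 and 297, 341 and 379.6 CPM at ZT05. Control male EDL had 155, 184 and 249.6 CPM at ZT17 and 529, 916 and 968 CPM at ZT05. Thus Pfkfb3 rose in Deficient EDL at ZT17 (1.47 ± 0.26, adjusted p = 0.0169) and fell at ZT05 (-1.24 ± 0.25, adjusted p = 0.0141), and the difference of 2.71 ± 0.36 was called (adjusted p = 0.00445) and held in each omission.

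Deficient male TA had 239.7, 529.9 and 644 CPM at ZT17 and 127, 345 and 479 CPM at ZT05. Control male TA had 93.1, 120.4 and 184 CPM at ZT17 and 564, 862 and 1035 CPM at ZT05. The difference of the responses was 3.21 ± 0.61 in male TA (adjusted p = 0.0415) and 2.96 ± 0.43 in male EDL tendon (adjusted p = 0.0488). These calls were lost in 9 and 11 of 12 omissions, at adjusted p up to 0.156 and 0.167, and that of EDL tendon also with both sexes in 1 fit (adjusted p = 0.62). Deficient female quadriceps had 117, 383 and 393 CPM at ZT17 and 538, 565 and 759.9 CPM at ZT05, but no difference of this kind was called for Pfkfb3 in females.

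**Figure D5:**
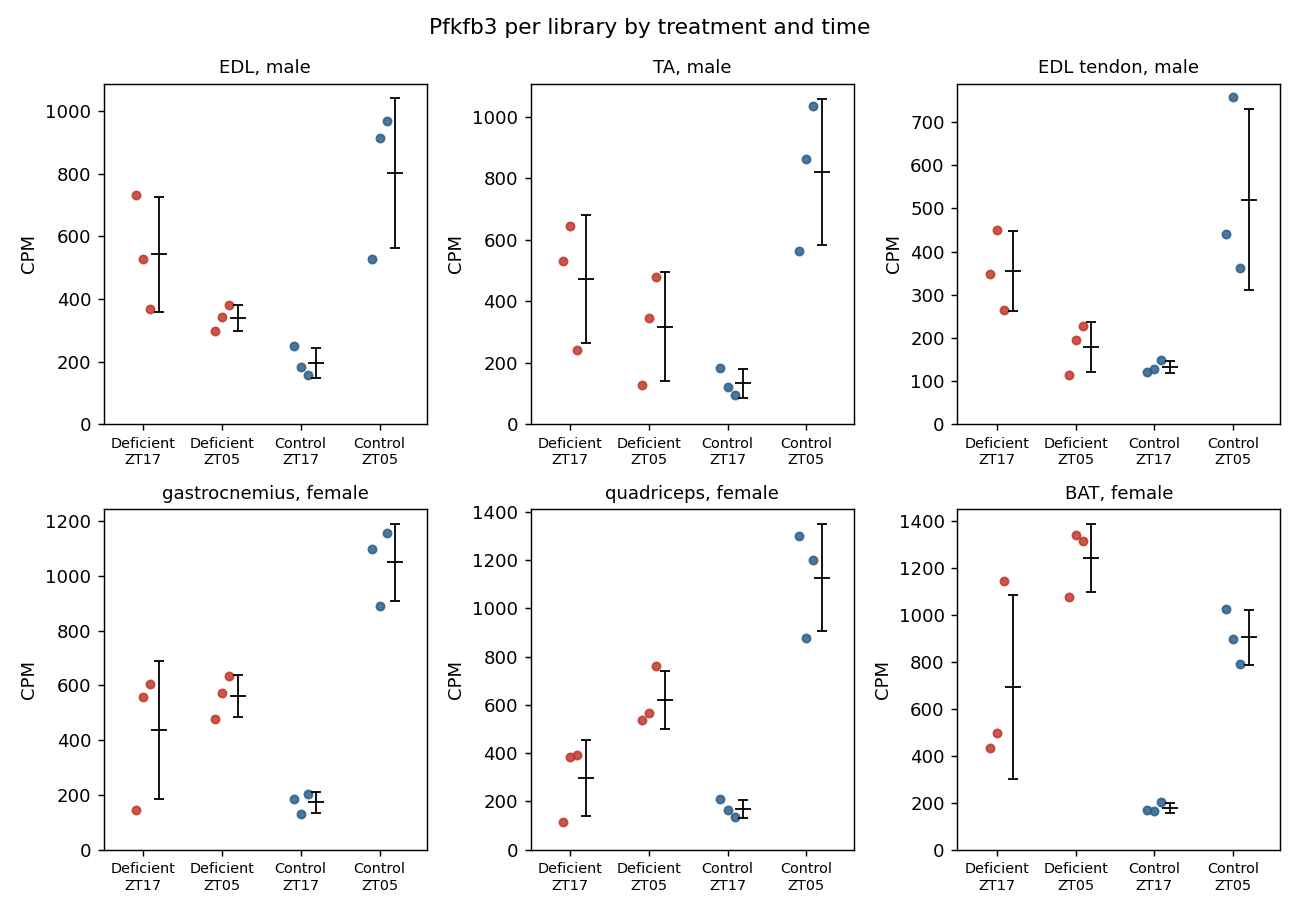
CPM of Pfkfb3 in each library of 3 male and 3 female tissues, for Deficient and then Control mice at ZT17 and ZT05, with mean and SD as bars. In Control mice the ZT05 libraries lie above the ZT17 libraries, and in Deficient male EDL the ZT17 libraries include the highest, at 733 CPM.

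Irs1 was the member most often higher at ZT17 in Control mice. Soleus of Control females had 268, 284 and 286 CPM at ZT17 and 95.6, 120.0 and 140.2 CPM at ZT05 (1.24 ± 0.24, adjusted p = 0.009). Soleus of Control males had 149, 183 and 218 CPM at ZT17 and 57.8, 65.5 and 86.5 CPM at ZT05 (1.38 ± 0.24, adjusted p = 0.00716). The times did not overlap in either sex, and both calls held in each omission. Control females also had higher Irs1 at ZT17 in TA (1.18 ± 0.31, adjusted p = 0.0333), quadriceps (1.10 ± 0.27, adjusted p = 0.0404), EDL (1.01 ± 0.22, adjusted p = 0.014) and liver (0.72 ± 0.20, adjusted p = 0.024), and Control males in TA (1.32 ± 0.29, adjusted p = 0.0458). These 5 calls were lost in 4, 6, 2, 5 and 9 of 12 omissions, at adjusted p up to 0.234. Those in quadriceps and liver of females were also lost with both sexes in 1 fit, at adjusted p of 0.206 and above. In Deficient mice Irs1 was not called between the times in any tissue, and the difference of the responses was not called for it either.

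Irs2 in soleus was higher at ZT17 in Control females, with 44.7, 44.7 and 49.8 CPM at ZT17 and 10.7, 17.6 and 17.6 CPM at ZT05 (1.59 ± 0.35, adjusted p = 0.0183). Control males had 38.2, 48.2 and 140.2 CPM at ZT17 and 16.1, 17.7 and 26.4 CPM at ZT05 (1.92 ± 0.49, adjusted p = 0.0408). Deficient males had the opposite order, with 21.7, 34.1 and 56.1 CPM at ZT17 and 75.2, 84.4 and 165 CPM at ZT05. The difference of the male responses was -3.45 ± 0.68 (adjusted p = 0.0414). The calls in females, in males and for this difference were lost in 4, 5 and 7 of 12 omissions, at adjusted p up to 0.0635, 0.198 and 0.121.

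Slc2a4 in BAT of Control males had 606, 757 and 901 CPM at ZT17 and 121, 145 and 216 CPM at ZT05 (2.40 ± 0.47, adjusted p = 0.00813). Deficient males had 227, 344 and 954 CPM at ZT17 and 307, 430.5 and 719 CPM at ZT05, and the difference of the responses was -2.49 ± 0.65 (adjusted p = 0.0195). The 2 calls were lost in 3 and 4 of 12 omissions, at adjusted p up to 0.0644 and 0.0637. The male BAT libraries held 568189 to 14049652 counts outside mitochondrially encoded and rRNA-like genes when Deficient and 332648 to 2546964 when Control, and the part of depth was not tested. Summed adipocyte markers did not overlap between the treatments, at 18908 to 21997 CPM in Deficient and 7494 to 14922 CPM in Control male BAT, with 2 of 8 called up. Summed skeletal muscle fibre markers were 37.2 to 1377 CPM in Deficient and 47.9 to 1976 CPM in Control male BAT, with 0 of 10 called. The part of these cells was not tested. Control females had 0.67 ± 0.18 in BAT (adjusted p = 0.0163). In female liver Slc2a4 was called between times in Control (2.10 ± 0.59, adjusted p = 0.0262) and for the difference of the responses (-3.03 ± 0.77, adjusted p = 0.0338), at levels of 0.602 to 2.48 CPM in Deficient and 0.109 to 2.13 CPM in Control females. Those calls were lost in 3 and 8 of 12 omissions. They and the call in BAT of Control females were lost with both sexes in 1 fit, at adjusted p of 0.0505 to 0.373.

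Gys2 in Control male liver had 57.4, 84 and 115 CPM at ZT17 and 421, 599 and 779 CPM at ZT05 (-2.79 ± 0.33, adjusted p = 4.09e-05). Deficient male livers had 54.6, 66.7 and 71.4 CPM at ZT17 and 85.3, 89.5 and 128 CPM at ZT05. The difference of the responses was 2.12 ± 0.44 (adjusted p = 0.0319), lost in 6 of 12 omissions at adjusted p up to 0.135. In Deficient females Gys2 was lower at ZT17 in liver (-1.26 ± 0.31, adjusted p = 0.0305).

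Slc2a2 in liver of Control females had 352, 382 and 459 CPM at ZT17 and 558, 579 and 734 CPM at ZT05 (-0.66 ± 0.14, adjusted p = 0.00614). Insr in BAT of Control females had 152, 171 and 171 CPM at ZT17 and 227, 257 and 272 CPM at ZT05 (-0.62 ± 0.12, adjusted p = 0.00381). Both were lower at ZT17 without overlap, and both calls held in each omission. Hk2 in Control female TA was higher at ZT17 (0.41 ± 0.12, adjusted p = 0.0487) and Gys2 in Control female kidney lower (-0.60 ± 0.16, adjusted p = 0.0377), calls lost in 8 and 6 of 12 omissions. In Deficient females Pfkfb3 was lower at ZT17 in liver (-2.47 ± 0.57, adjusted p = 0.0227) and kidney (-0.99 ± 0.22, adjusted p = 0.0286), and Hk1 was higher in EDL (0.56 ± 0.14, adjusted p = 0.0292). In Deficient males Irs2 was lower at ZT17 in EDL (-0.80 ± 0.14, adjusted p = 0.0148). Of the calls in this paragraph, those of Slc2a2 in liver, Insr in BAT, Hk2 in TA and Irs2 in male EDL were lost with both sexes in 1 fit, at adjusted p of 0.0583 to 0.425. Those of Pfkfb3 in liver and Hk1 in EDL of Deficient females were lost with limma voom.

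Longer lists place the members among their pathways, and they are described by counts alone. The background for each count is that of all genes given above, in females 6.88% of pairs rising and 7.34% falling, and in males 2.34% rising and 2.43% falling. Of 42 genes of insulin receptor signalling, which include Insr, Irs1 and Irs2, 116 of 756 female pairs of gene and tissue rose (15.3%) and 36 fell (4.76%), and 39 of 703 male pairs rose (5.55%) and 10 fell (1.42%). Their median log2 fold change was 0.06 in females and 0.06 in males, where over all genes tested it was 0.0022 in females and 0.0088 in males. Igf1r, the receptor gene of the related growth factor IGF1, rose in 11 female and 3 male tissues. Foxo3, which encodes a transcription factor that AKT keeps out of the nucleus, rose in 10 female and 5 male tissues. Pik3r1, which encodes a regulatory subunit of phosphatidylinositol 3-kinase, rose in 5 male tissues. Grb14, which encodes an inhibitory adaptor of the receptor, fell in 5 female and 3 male tissues and rose in 1 of each.

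Of 30 hexokinase and glycolysis genes matched, 27 of 477 female pairs rose (5.66%) and 78 fell (16.4%), with a median of -0.12, and 10 of 439 male pairs rose (2.28%) and 34 fell (7.74%), with a median of -0.08. The falls were above the background in both sexes, and the rises lay near it. Ldha, which encodes a lactate dehydrogenase subunit, fell in 9 female tissues, and Eno1 and Pgam1, which encode enzymes of lower glycolysis, in 8 each. Pdk4, which encodes a kinase that switches off pyruvate dehydrogenase, rose in 5 female tissues. In males Eno1, Pgk1 and Tpi1 fell in 4 tissues each. Of 25 glycogen genes, 32 of 417 female pairs rose (7.67%) and 53 fell (12.7%), and 17 of 379 male pairs rose (4.49%) and 19 fell (5.01%), with medians of -0.02 in females and 0.03 in males. Phkb, which encodes a subunit of phosphorylase kinase, fell in 7 female tissues, and Gyg, which encodes the glycogenin that primes glycogen, rose in 5 and fell in 2.

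Of 13 glucose transporter genes, a list that includes the regulator Txnip, 16 of 170 female pairs rose (9.41%) and 15 fell (8.82%), and 5 of 144 male pairs rose (3.47%) and 2 fell (1.39%), with medians of 0.09 in females and 0.07 in males. These shares lay near the background. Txnip, whose product limits glucose uptake, rose in 6 female tissues. Of 8 gluconeogenesis genes, 5 of 114 female pairs rose (4.39%) and 14 fell (12.3%), and 5 of 107 male pairs rose (4.67%) and 6 fell (5.61%), with medians of 0.05 in females and -0.03 in males. G6pc encodes the catalytic subunit of glucose 6-phosphatase. It fell in female liver by 1.20 ± 0.29 on the log2 scale (adjusted p = 0.0148) and rose in male liver by 1.95 ± 0.38 (adjusted p = 0.00374). The female minus male difference of G6pc is not reported here. Male liver libraries held few counts outside the set-aside transcripts, as given above, and the part of depth was not tested. Pck1, which encodes the cytosolic enzyme of the first committed step, rose in female liver by 0.76 ± 0.20 (adjusted p = 0.0262).

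Some genes had responses over the tissue and sex fits that resembled those of a member, out of 11348 searched. Dhtkd1 came closest to Insr (Pearson correlation 0.886 over 33 fits), Exd2 to Irs1 (0.869 over 35), Zfp516 to Irs2 (0.754 over 34) and Ubac1 to Slc2a4 (0.765 over 33). Iqce came closest to Hk1 (0.853 over 34), Padi2 to Hk2 (0.845 over 32) and Gpd2 to Pfkfb3 (0.669 over 35). Fits of the same animals share a source, so these points are not independent.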

How the data were processed

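The authors deposited 1 table of raw read counts per gene and library, for 55487 genes and 419 libraries of TRIzol-extracted RNA sequenced after poly(A) selection with a stranded kit, per the labels. Per the submitters' processing notes, the build was GRCm38 (mm10). The tools named there are STAR 2.7.10a, DESeq2 1.34.0, cutadapt 4.1 and FastQC 0.11.9. The counting tool, annotation and strand setting are not given in the sources used here.

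All 419 columns matched a sample by name, and 0 columns were left unmatched. Mitochondrially encoded and rRNA-like genes (396) were set aside before library sizes were computed. Each tissue and sex was fitted alone in R 4.3.3 with edgeR 4.0.16: TMM scaling, the edgeR filter on low counts (minimum count 10, minimum total 15), a mean for each treatment and time, glmQLFit and glmQLFTest, and Benjamini-Hochberg adjustment over all genes of the fit, called below 0.05. The difference between the sexes was tested in 1 fit of both sexes in 16 tissues. Levels use TMM within a tissue over both sexes. The fitting code was tested on simulated data. Of 418 pairs of replicates, the closest differed by a chi-square of 3.29 per gene, where 1 is sampling noise, so no library was taken as a repeat. Replicate numbers did not pair the libraries: the mean correlation of same-numbered deviations ran from -0.105 to 0.218, and in 0 of 35 fits did each pair exceed 0.1.

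The genes, lists and tests were chosen with earlier results of these data known. From each pathway list the text names, per sex, genes among the 3 called up and 3 called down in the most tissues, and called genes in liver, and for each gene its closest ones by Pearson correlation. The gene closest to Hk2 in level is not reported here. The alternatives were DESeq2 size factors, the set-aside genes kept, no filter, a filter of 5 CPM in 3 libraries, DESeq2 1.42.0, limma 3.58.1 (voom with sample weights), the replicate number as a block, both sexes in 1 fit, a term for male animals numbered 73 and above, and each library left out. Counting error limits the values of low genes, and floors cover counting error only. No protein sequence was used.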

Additional observations from a re-analysis of the deposited data

Results flagged for a closer look

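Some member responses differed between the sexes or between the times by a test of the difference itself (edgeR's quasi-likelihood test, Benjamini-Hochberg adjusted over all genes of the fit). Between females and males, the adrenal responses differed by -1.19 for Slc2a4 (adjusted p = 0.0284) and by -1.84 for Gys2 (adjusted p = 0.0493). The kidney response of Insr differed by -0.37 (adjusted p = 0.0442). In both tissues the males were all numbered 73 and above and the females all under 73, so sex and animal number range cannot be told apart. The Gys2 and Insr differences were not called with DESeq2 size factors or with the set-aside genes kept. Leaving out single libraries lost the Slc2a4, Gys2 and Insr differences in 11, 17 and 16 of 24 omissions.

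Between ZT17 and ZT05, the response of Pfkfb3 in males differed by 2.71 in EDL (adjusted p = 0.00445), by 3.21 in TA (adjusted p = 0.0415) and by 2.96 in EDL tendon (adjusted p = 0.0488). The response of Irs2 in male soleus differed by -3.45 (adjusted p = 0.0414). That of Slc2a4 differed by -2.49 in male BAT (adjusted p = 0.0195) and by -3.03 in female liver (adjusted p = 0.0338), and that of Gys2 in male liver by 2.12 (adjusted p = 0.0319).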

How the results depend on the processing

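Of 89 member calls, the shares kept were 86 of 89 with DESeq2 size factors, 86 of 89 with the set-aside genes kept, 83 of 86 with no filter on low counts, 82 of 82 with the stricter filter, 89 of 89 with the DESeq2 test, 83 of 89 with limma voom, 77 of 89 with the replicate block and 45 of 80 with both sexes in 1 fit, and 0 changed direction. Calls that ended under a setting other than the block are named with the results. The averaged female response gave 38 calls, against 23 with both sexes in 1 fit, and the male response 9, against 16 with no filter. The female time difference of the response gave 1 call, against 20 with no filter, 8 with DESeq2 and 10 with voom, and the male one 6, against 14 with no filter and 11 with voom. ZT17 minus ZT05 in Control females gave 17 calls, against 33 with no filter, 26 with DESeq2, 38 with voom and 11 with both sexes in 1 fit, and in Control males 10, against 22 with no filter and 24 with voom. In Deficient females it gave 4, against 17 with no filter, 13 with DESeq2 and 8 with voom, and in Deficient males 1, against 9 with no filter, 3 with DESeq2, 2 with voom and 0 with both sexes in 1 fit. The sex difference gave 3 calls, against 1 with DESeq2 size factors, 1 with the set-aside genes kept, 7 with DESeq2 and 11 with voom. Of the 9 top tissues of the members' levels, 5 stayed with scaling over all 419 libraries. With no filter, edgeR's weight on the shared variance trend (prior degrees of freedom) was infinite in 16 of 35 fits, against 0 of 35 with the stricter filter. The counts with no filter are to be read with that limit. The cause of these differences was not tested.

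With the replicate block the counts, in the same order, were 37, 8, 1, 4, 19, 9, 5, 1 and 4, and the block lost the time difference of the response of Pfkfb3 in male TA and EDL tendon and of Irs2 in male soleus. Leaving out 1 library at a time gave 35 to 41 and 7 to 12 calls for the female and male responses, 0 to 3 and 5 to 8 for the time differences of the response, 15 to 20 and 8 to 12 for the times in Control and 2 to 6 and 0 to 2 for the times in Deficient mice. Of 89 single calls, 39 held in each omission. For the sex difference, where this was chosen after seeing the data, the omissions gave 1 to 5 calls. Where an omission left 1 library in a group of tibialis anterior tendon, that library was taken to vary like the other groups. With 3 libraries a group and few counts in male BAT and liver, a missing call there does not show an absent difference.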
